A study of Homo sapiens with 27 samples.

Results

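The genes described here are 8 regulators of G-protein signaling: RGS1, RGS2, RGS3, RGS10, RGS14, RGS16, RGS18 and RGS19. They were chosen by symbol, mapped to gene identifiers through GENCODE, and are 8 of the 57905 genes in the table and 8 of its 21 RGS genes numbered 1 to 22. The choice was made with the counts and FPKM values (fragment counts scaled to transcript length and sequencing depth) of these libraries known, so the members' levels and changes are given as a description. No p-value is given for a member, and whether a member met the rule applied to every gene of the table is stated only to place it beside the share of all genes that did; it is no test of the member. As stated, the choice names no threshold on a value, and which values guided it is not given. RGS12 is not a member although its mean level, 6.97 FPKM over the 9 libraries, was above that of 3 members.

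RNA-seq was performed on U937, a human myeloid leukemia cell line with monocytic features, to follow how gene expression responded to matrine, an alkaloid of the herb Sophora flavescens. There were 3 groups of 3 libraries: control U937 cells, and cells given matrine at 0.8 mg/ml for either 30 min or 24 h. All came from the same unmodified line grown in the same serum-containing medium, and water (ddH2O) was the vehicle. Both times were compared with the one set of 3 control libraries, and since the control's own time in culture is not named, 24 h of treatment and 24 h of culture cannot be told apart. Libraries of the HL-60 and K562 lines were not used here.

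Library totals ranged from 17314931 to 21930018 counts, of which the top 10 genes made up 4.99% to 5.28%. Of 10 monocytic and myeloid markers, 6 had a mean above 1 FPKM, with LYZ (lysozyme) the most abundant, while CD14, CD68 and CSF1R were each below 1 FPKM on average. Their summed level was 407.47 to 411.14 FPKM in the control, 402.54 to 427.38 FPKM at 30 min and 364.8 to 370.41 FPKM at 24 h. Of 10 measured markers of lymphoid, erythroid, stromal and epithelial cells, 7 were listed at 0 in all 9 libraries, among them CD3D, CD3E, MS4A1, HBB, HBG1 and EPCAM. The sum of these 10 was 2.61 to 3.7 FPKM in the control, 2.89 to 3.57 FPKM at 30 min and 3.77 to 4.14 FPKM at 24 h. Of the 7 myeloid markers tested at 24 h, 2 were called higher and 0 lower, beside 15.1% and 11.2% of all genes. ITGAM (an integrin of mature myeloid cells) rose by 1.25 on the log2 scale (SE 0.11; adjusted p of 3.7e-09 by edgeR). MPO (myeloperoxidase), which passed the FPKM filter only through the 24 h libraries, stood at 2.50 (SE 0.24). LYZ and the myeloid transcription factor SPI1 were lower by less than 1.5-fold, at -0.31 (SE 0.053; adjusted p of 2.9e-05 by edgeR) and -0.32 (SE 0.070; adjusted p of 0.00046 by edgeR), and CD4 was higher by less than 1.5-fold, at 0.56 (SE 0.057; adjusted p of 2.8e-08 by edgeR). CD33 (-0.072) and FCGR1A (0.21) did not pass the test. The B-cell gene CD79A rose by 0.74 (SE 0.21; adjusted p of 0.0047 by edgeR). The part of either marker list in the results below was not tested.

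Heterotrimeric G proteins carry the signal of chemokine, complement, lipid and nucleotide receptors into the cell, and they signal for as long as their alpha subunit holds GTP. RGS proteins share a domain that binds the active alpha subunit and speeds GTP hydrolysis, which ends the signal of both the alpha and the beta-gamma subunits. In leukocytes they are known for limiting chemokine-driven migration, and the mRNA of several of them changes quickly when a cell is stimulated. By the usual grouping of the family, RGS1, RGS2, RGS3, RGS16 and RGS18 belong to the R4 subfamily of mostly small proteins, RGS10 and RGS14 to R12, and RGS19 to RZ.

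Of the 8 members, 4 lie on the long arm of chromosome 1, and they differed widely in level and change: RGS16 was lower after matrine, RGS18 was higher at 24 h than at 30 min, RGS2 was higher at 30 min at low counts, and RGS1 was nearly absent. In GENCODE 44 (GRCh38), RGS16 lies at chr1:182598623-182604389 on the minus strand, RGS18 at chr1:192158462-192185815, RGS1 at chr1:192575763-192580024 and RGS2 at chr1:192809039-192812275, the last 3 on the plus strand. RGS8 lies between RGS16 and RGS18, RGS21 between RGS18 and RGS1, and RGS13 between RGS1 and RGS2. The 250 bases before the RefSeq start of these 4 genes (GRCh38.p14) are shown 5′ to 3′ on the gene's own strand. They are shown because genes of the same subfamily on the same chromosome arm had such different levels. Capitals mark matches to any of the motifs listed after them. The windows are chr1:182604390-182604639 for RGS16, chr1:192158212-192158461 for RGS18, chr1:192575523-192575772 for RGS1 and chr1:192808789-192809038 for RGS2.
RGS16: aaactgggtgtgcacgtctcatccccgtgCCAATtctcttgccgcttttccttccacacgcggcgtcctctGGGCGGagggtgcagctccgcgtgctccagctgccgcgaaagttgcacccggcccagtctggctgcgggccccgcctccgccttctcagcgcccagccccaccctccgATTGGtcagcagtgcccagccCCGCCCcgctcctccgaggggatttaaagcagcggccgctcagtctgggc
RGS18: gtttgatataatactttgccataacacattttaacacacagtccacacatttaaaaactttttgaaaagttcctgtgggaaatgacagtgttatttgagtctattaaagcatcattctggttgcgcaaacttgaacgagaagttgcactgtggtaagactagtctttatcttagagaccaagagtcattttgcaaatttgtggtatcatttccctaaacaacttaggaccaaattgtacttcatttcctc
RGS1: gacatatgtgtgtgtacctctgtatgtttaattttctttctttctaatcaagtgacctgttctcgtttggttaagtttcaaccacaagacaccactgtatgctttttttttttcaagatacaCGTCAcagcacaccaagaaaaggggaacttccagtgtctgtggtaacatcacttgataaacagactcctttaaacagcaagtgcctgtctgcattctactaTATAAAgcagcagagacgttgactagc
RGS2: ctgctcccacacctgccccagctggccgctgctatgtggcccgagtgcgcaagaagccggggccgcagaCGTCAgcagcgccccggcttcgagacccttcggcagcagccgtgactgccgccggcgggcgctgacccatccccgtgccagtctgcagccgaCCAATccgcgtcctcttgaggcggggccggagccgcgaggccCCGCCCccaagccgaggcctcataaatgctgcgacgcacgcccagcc

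Both strands were searched for CACGTG (E-box), TGACGTCA (cAMP response element), its 5-base core TGACG, which lies within it, TGANTCA (AP-1 site), GGGCGG (GC box), CCAAT and TATAAA. The RGS16 window held GC boxes that begin 179 and 50 bases before the start and CCAAT boxes at 221 and 71. The RGS2 window held the TGACG core at 181, CCAAT at 89 and a GC box at 47. The RGS1 window held the TGACG core at 128 and TATAAA at 27, and none of these letters was found in the RGS18 window. Over 35116 RefSeq promoters of the same length, 42.64% held a GC box, 32.01% CCAAT, 21.22% TGACG, 10.72% TATAAA, 6.57% TGANTCA, 6.34% CACGTG and 1.65% TGACGTCA. The share of G and C was 72.8% before RGS2 and 68.4% before RGS16, against 39.2% before RGS1 and 34.8% before RGS18, with a median of 58.0% over all promoters. All 8 members were matched in the promoter table. The letters CACGTG were found in 1 of the 5 windows of RGS3 and 1 of the 2 windows of RGS19, and in no window of the other 6 members. A match is a description of the letters and not a bound site.

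Of the 8 members, 5 were expressed at a mean above 1 FPKM and 3 were not. In control cells the mean level was 48.1 ± 4.20 FPKM for RGS19, 21.3 ± 2.12 FPKM for RGS10, 17.6 ± 1.33 FPKM for RGS18, 10.9 ± 0.847 FPKM for RGS16 and 8.96 ± 0.323 FPKM for RGS14 (SD, n = 3 each). RGS2 stood at 0.303 ± 0.176 FPKM, RGS3 at 0.0767 ± 0.0379 FPKM and RGS1 at or near 0. In the control the ranges of neighbors in this order did not overlap, and that held in both treated groups too. The order itself differed between groups. RGS14 stood above RGS16 at both treated times, and RGS18 stood above RGS10 at 24 h.

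**Figure D1:**
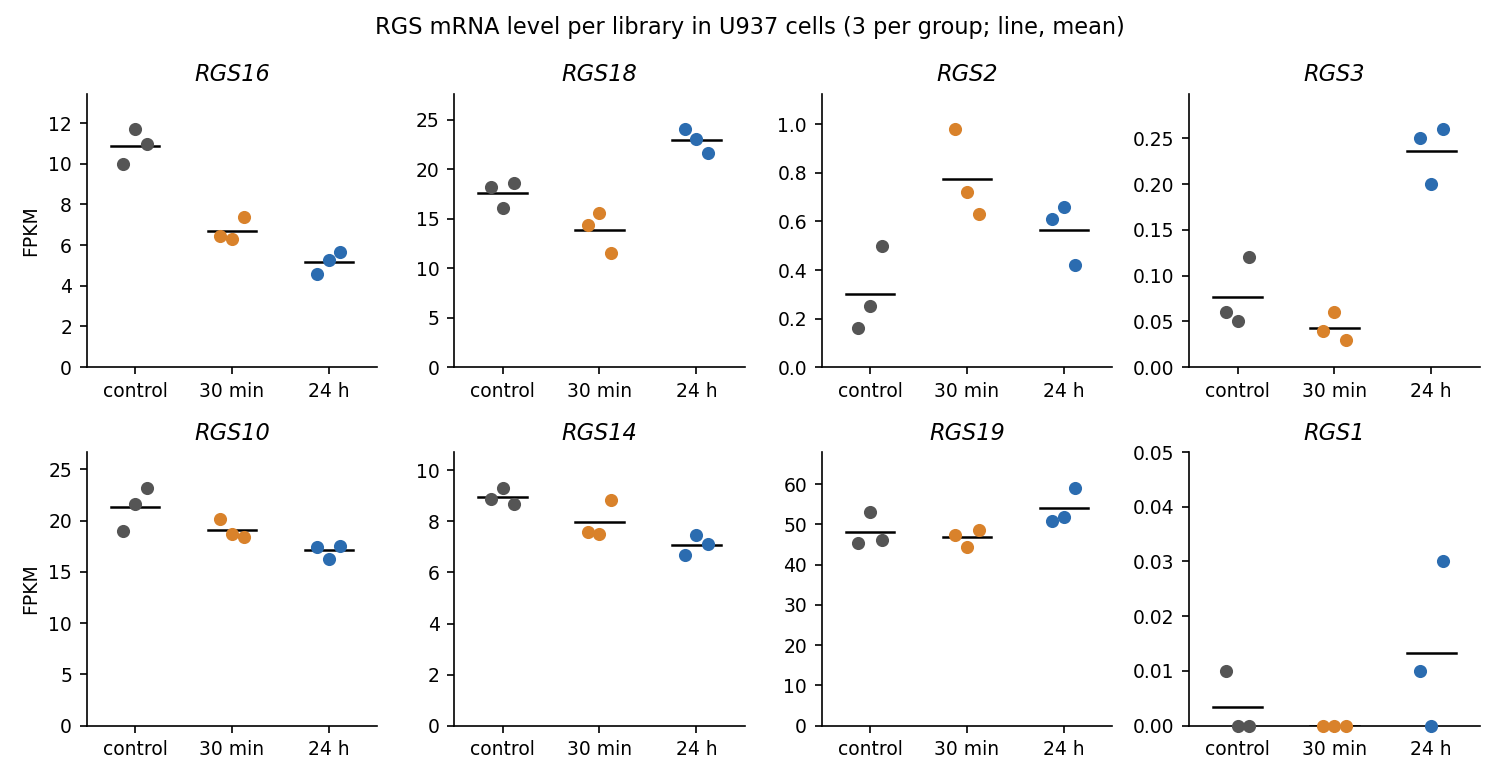
Level of each of the 8 RGS genes (FPKM) in the 3 control, 3 30 min and 3 24 h libraries; points are libraries and lines are group means, and each gene has its own axis from 0. RGS16 drops from 10.01 to 11.7 FPKM in the control to 6.32 to 7.39 FPKM at 30 min and 4.59 to 5.68 FPKM at 24 h, while RGS18 is lowest at 30 min and highest at 24 h.

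RGS16 is a small R4 protein that acts on Gi and Gq alpha subunits and is known to limit chemokine-driven migration. Its level was 10.01, 11.7 and 10.95 FPKM in the 3 control libraries, 6.43, 6.32 and 7.39 FPKM at 30 min and 4.59, 5.26 and 5.68 FPKM at 24 h. Every library at 30 min was below every control library, and every library at 24 h was below every library at 30 min. The counts behind these values were 460 to 550 in the control, 315 to 366 at 30 min and 229 to 301 at 24 h. RGS16 was 1.61-fold lower at 30 min (log2 fold change -0.69, SE 0.10) and 2.17-fold lower at 24 h (-1.12, SE 0.11). A gene was called changed at an adjusted p below 0.05 (quasi-likelihood test of edgeR, adjusted by Benjamini-Hochberg over all genes tested) and a fold change of at least 1.5. As a description, RGS16 met that rule at both times. It was the only one of the 5 tested members called lower at 30 min, where 0.544% of 11587 genes were, and likewise at 24 h, where 11.2% of 12035 genes were. Between 30 min and 24 h it was 1.37-fold lower (-0.45, SE 0.11), short of 1.5-fold, and none of the 5 tested members was called lower there, against 11.5% of 11981 genes. In bulk RNA, fewer cells with a transcript and less of it per cell cannot be told apart, here or below.

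RGS18 is an R4 protein best known from platelets and their precursors and from other myeloid cells. Its level was 18.22, 16.12 and 18.59 FPKM in the control, 14.4, 15.54 and 11.53 FPKM at 30 min and 24.06, 23.1 and 21.63 FPKM at 24 h. The 3 groups did not overlap: the 30 min libraries were the lowest and the 24 h libraries the highest. Against control, RGS18 had a log2 fold change of -0.34 (SE 0.092) at 30 min and 0.33 (SE 0.088) at 24 h, both short of 1.5-fold. Between the treated groups it was 1.57-fold higher at 24 h (0.65, SE 0.089). It met the rule there, alone of the 5 tested members, beside 15.4% of all genes tested. Without replicate 3 of the 30 min group, the lowest library, the difference was 0.53 and fell short of 1.5-fold. RGS18 exons overlap an antisense lncRNA (ENSG00000285280) that is no gene of the table, and whether counting used strand is not given in the sources used here.

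**Figure D2:**
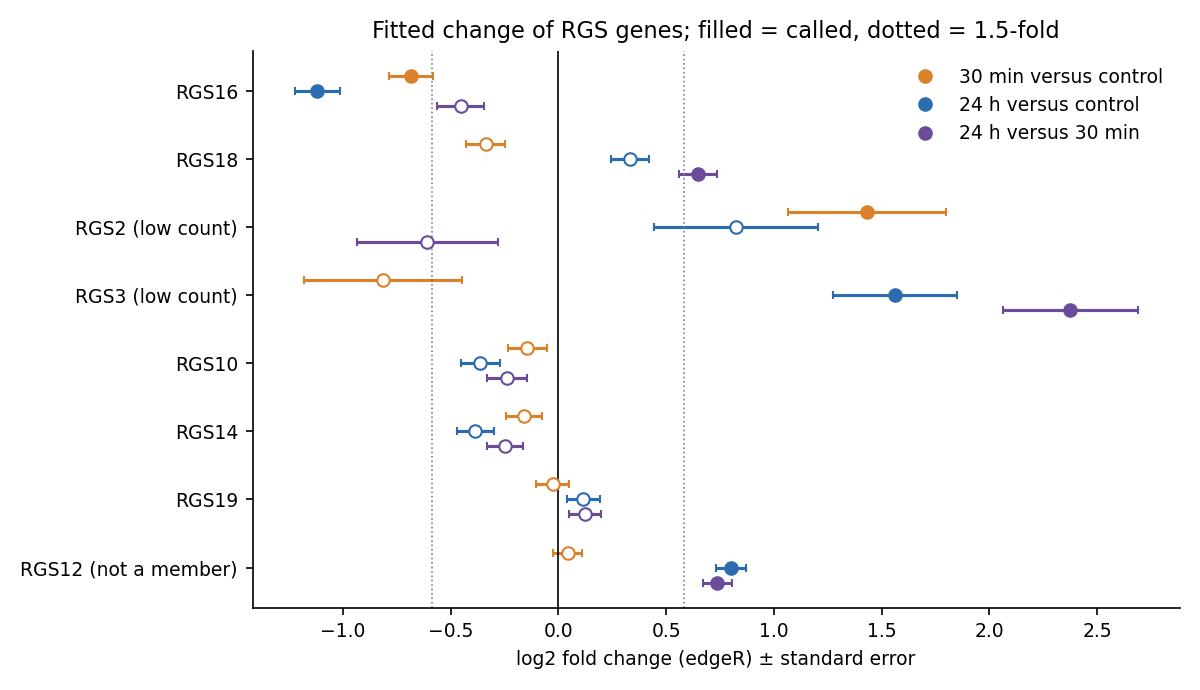
Log2 fold change of 7 of the 8 RGS genes and of RGS12 in the 3 comparisons, with bars of 1 standard error and dotted lines at 1.5-fold; filled points met the rule applied to all genes (adjusted p below 0.05 and at least 1.5-fold), which for the members is a description, and RGS2 and RGS3 come from the fit without the FPKM filter. RGS16 lies at -0.69 at 30 min and -1.12 at 24 h, RGS3 reaches 2.38 between 30 min and 24 h, and RGS1 had too few counts to fit.

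The 3 other R4 members were read at low counts, and their values come from the fit without the filter on low FPKM. RGS2, which favors Gq alpha subunits and is known as an early-response gene, had 7, 10 and 18 counts in the control, 45, 31 and 27 at 30 min and 26, 28 and 19 at 24 h. The corresponding levels were 0.16, 0.25 and 0.5 FPKM, then 0.98, 0.72 and 0.63 FPKM, then 0.61, 0.66 and 0.42 FPKM. All 30 min libraries were above all control libraries, while the 24 h libraries overlapped the control in FPKM but not in counts. RGS2 was 2.70-fold higher at 30 min (1.43, SE 0.37) and met the rule, beside 0.122% of 20453 genes called higher in that fit. The rule was not met in 12 of 16 alternatives, among them leaving out control replicate 1 (1.11) or 2 (1.33), any replicate of the 30 min group (1.22 to 1.56) or 24 h replicate 1 or 2 (1.42 each). RGS2 also did not meet it with DESeq2 (1.43), limma on log2(FPKM + 0.1) (1.19) or log2(FPKM + 1) (0.45). The same held with scaling by library totals alone (1.40) or with only the libraries compared (1.42), so RGS2 depended on the method as well as on single libraries. At 24 h its log2 fold change was 0.83 (SE 0.38), which did not meet the rule; leaving out 1 library gave 0.51 (without control replicate 1) to 1.32 (without control replicate 3), and the rule was met without control replicate 3 or 24 h replicate 3 (0.99). With the filter, none of the 5 members tested at 30 min was called higher, against 0.0949% of all genes.

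RGS3 exists as short and long forms, the longest with a PDZ domain, and GENCODE 44 places it at chr9:113444731-113597743 on the plus strand. It had 18, 13 and 28 counts in the control, 11, 17 and 8 at 30 min and 71, 56 and 78 at 24 h, which is 0.05 to 0.12 FPKM, 0.03 to 0.06 FPKM and 0.2 to 0.26 FPKM. The 24 h libraries were above all others, and the 30 min libraries overlapped the control. RGS3 was 2.95-fold higher at 24 h than in control (1.56, SE 0.29) and 5.19-fold higher than at 30 min (2.38, SE 0.31). Both differences met the rule, beside 13.6% and 14.3% of the 20453 genes called higher in those fits without the filter. The 30 min difference, -0.81 (SE 0.37), did not. With the filter, none of the 5 tested members was called higher at 24 h against control, beside 15.1% of all genes.

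RGS1, known from activated B cells and other leukocytes, had 1, 0 and 0 counts in the control, 0, 0 and 0 at 30 min and 1, 0 and 3 at 24 h. No library exceeded 3 counts, the limit that a count of 0 allows, so no fold is given.

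The R12 members RGS10 and RGS14 were abundant and showed small differences. RGS10, known in microglia and macrophages, lies at chr10:119499817-119542719 on the minus strand. Its level was 19.01, 21.65 and 23.2 FPKM in the control, 20.1, 18.66 and 18.4 FPKM at 30 min and 17.45, 16.24 and 17.55 FPKM at 24 h. The 24 h libraries were the lowest, and the 30 min libraries overlapped the control. The log2 fold change was -0.14 (SE 0.090) at 30 min, -0.36 (SE 0.091) at 24 h and -0.24 (SE 0.091) between them.

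RGS14, which also binds inactive Gi alpha subunits through a GoLoco motif and carries Ras-binding domains, lies at chr5:177357924-177372596 on the plus strand. Its level was 8.88, 9.32 and 8.69 FPKM in the control, 7.58, 7.49 and 8.83 FPKM at 30 min and 6.69, 7.47 and 7.1 FPKM at 24 h. All 24 h libraries were below all libraries of the other groups, and 1 library at 30 min reached the control range. The log2 fold change was -0.16 (SE 0.083) at 30 min, -0.39 (SE 0.086) at 24 h and -0.25 (SE 0.086) between them. No RGS10 or RGS14 difference reached 1.5-fold.

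RGS19, an RZ protein first described as a Gi-interacting partner, was the most abundant member and the one that moved least. It lies at chr20:64073181-64079988 on the minus strand. Its level was 45.41, 52.97 and 46.0 FPKM in the control, 47.48, 44.48 and 48.67 FPKM at 30 min and 50.95, 51.79 and 59.11 FPKM at 24 h. The 30 min libraries lay within or just below the control range, and the 24 h libraries overlapped the control. Its log2 fold change was -0.026 (SE 0.075) at 30 min, 0.12 (SE 0.076) at 24 h and 0.12 (SE 0.076) between them. The sign at 30 min turned without control replicate 2 (0.056) or 30 min replicate 2 (0.036).

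Over the 5 tested members the median log2 fold change was -0.16 at 30 min, -0.36 at 24 h and -0.24 between them, beside -0.0043, 0.0082 and 0.014 over all genes tested. Summed over all 8 members the level was 107.3 ± 5.19 FPKM in the control, 95.3 ± 1.88 FPKM at 30 min and 107.0 ± 4.11 FPKM at 24 h (SD, n = 3). The sum over the 10 R4 genes, nearly all of it RGS16 and RGS18, was 28.9 ± 1.10 FPKM in the control, 21.4 ± 1.61 FPKM at 30 min and 29.0 ± 0.786 FPKM at 24 h. RGS18 was the larger part of this sum in all 3 groups. The sum over the 3 R12 genes was 35.7 ± 2.26 FPKM, 32.6 ± 0.911 FPKM and 34.0 ± 0.617 FPKM, and over the 3 RZ genes it was 48.3 ± 4.19 FPKM, 47.0 ± 2.18 FPKM and 54.1 ± 4.45 FPKM.

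Of the 13 RGS genes that are no members, RGS12 alone had a mean above 1 FPKM. RGS4, RGS6, RGS7 and RGS21 were listed at 0 in all libraries, and RGS5, RGS8, RGS9, RGS11, RGS13, RGS17, RGS20 and RGS22 had means of at most 0.0744 FPKM. RGS12, an R12 protein with PDZ and GoLoco motifs, stood at 5.38, 5.2 and 5.84 FPKM in the control, 5.13, 5.47 and 6.18 FPKM at 30 min and 9.77, 9.75 and 10.03 FPKM at 24 h. It rose 1.74-fold at 24 h (0.80, SE 0.068), with an adjusted p of 2.1e-09 by the same edgeR test, where its R12 relatives RGS10 and RGS14 stood at -0.36 and -0.39. At 30 min its log2 fold change was 0.043 (SE 0.068; adjusted p of 0.88 by the same edgeR test).

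**Figure D3:**
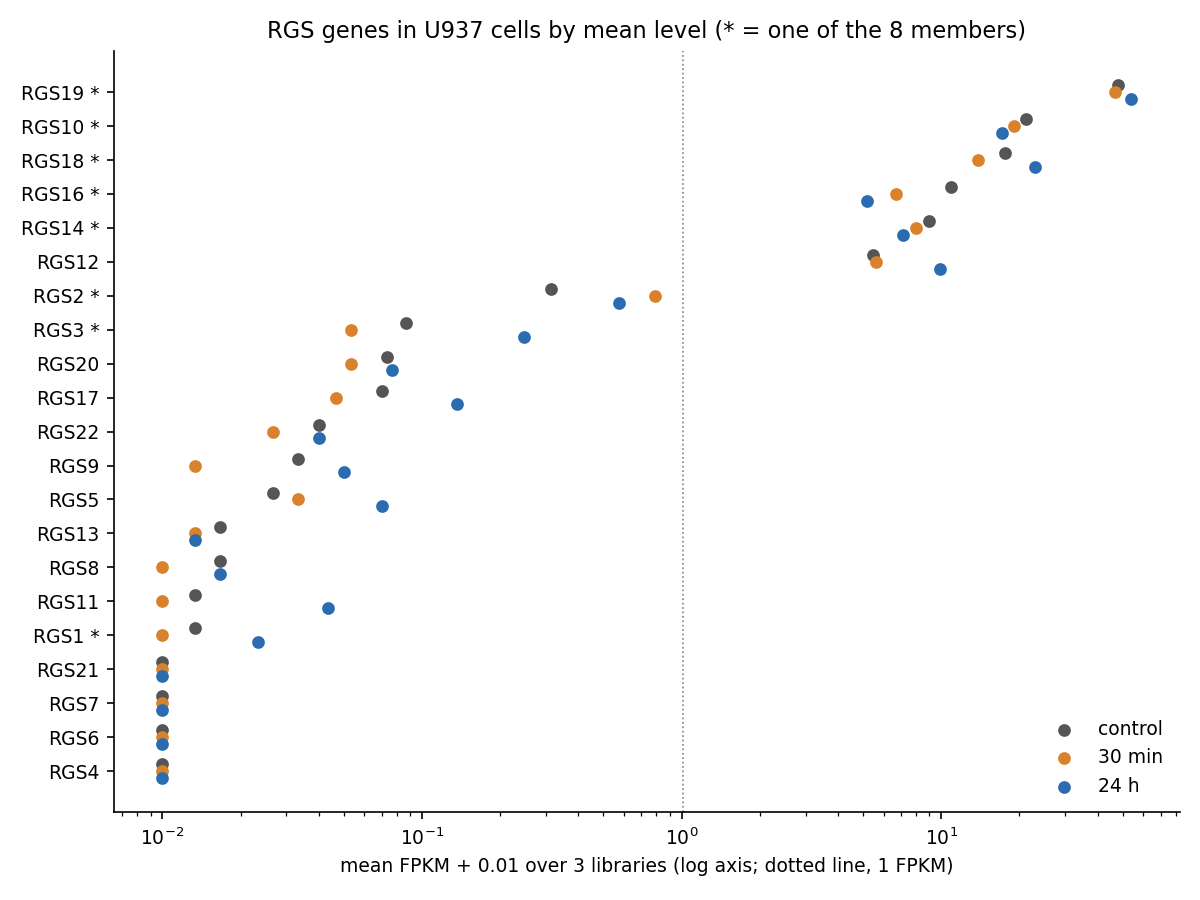
Mean level of the 21 RGS genes over the 3 libraries of each group, plotted as FPKM + 0.01 on a log axis, with 1 point for each group and no error bar; an asterisk marks a member and the dotted line is 1 FPKM. RGS12 and 5 members lie right of the line, from RGS19 with a control mean of 48.1 FPKM down to RGS12 with 5.47 FPKM, and all others lie left of it.

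Likeness over the 9 libraries was measured as Pearson's r of log2 CPM (counts scaled to library size) among 11899 genes with a mean above 1 FPKM. The 2 genes nearest to RGS16 were CCDC71 (0.99) and TXNDC5 (0.97), and those nearest to RGS18 were STK17B (0.97) and PLEKHF2 (0.97). For RGS10 they were KIAA0753 (0.98) and CIDEB (0.97), for RGS14 SAMD4B (0.97) and TNFAIP8L2 (0.97), and for RGS19 KIRREL2 (0.93) and ABHD14B (0.91). These values are a description: the points share the libraries and the 3 groups, and the nearest of many genes has a high r by selection.

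The rest of the pathway was read from lists of 131 genes, of which 129 were measured: receptors, G-protein subunits, effector enzymes, receptor kinases and arrestins, and other regulators with and without an RGS-like domain. At 30 min, 2 of the 73 tested genes fell and 0 rose, beside 0.544% and 0.0949% of all genes. At 24 h, 12 of 76 were called higher and 5 lower, beside 15.1% and 11.2% of all genes. Of those 12, 3 (C5AR1, CX3CR1 and ADCY4) had control means below 1 FPKM and passed the FPKM filter only through the 24 h libraries, so their values are given without a p; they were also called in the fit without that filter. The median log2 fold change of the tested genes was -0.045 at 30 min and 0.061 at 24 h, beside -0.0043 and 0.0082 over all genes. The open point at the right of the 30 min panel in the plot of pathway genes is GNG13, a gamma subunit, which was not called.

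Both genes that fell at 30 min were receptors, of 26 tested, beside 0.544% of all genes called lower. CXCR4, the receptor of the chemokine CXCL12 and a Gi-coupled receptor, went from 126.2 ± 3.35 FPKM in the control to 78.3 ± 3.32 FPKM at 30 min and stood at 117.2 ± 3.70 FPKM at 24 h (SD, n = 3). Its log2 fold change at 30 min was -0.68 (SE 0.055; adjusted p of 5.7e-08 by edgeR's quasi-likelihood test). GPR84, a receptor for medium-chain fatty acids, had -0.63 at 30 min (SE 0.13; adjusted p of 0.0093 by the same edgeR test) and -1.57 at 24 h (adjusted p of 3.8e-09). The GPR84 call at 30 min was lost without control replicate 1 (-0.61) or 3 (-0.61) or 30 min replicate 1 (-0.62) or 2 (-0.50), and with limma on log2(FPKM + 0.1) (-0.64) or log2(FPKM + 1) (-0.56).

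At 24 h, 5 of 28 receptors were called higher and 3 lower, beside 15.1% and 11.2% of all genes. The complement receptor C5AR1 had the highest log2 fold change, 4.42 (SE 0.25), from 0.130 ± 0.0173 FPKM to 2.92 ± 0.303 FPKM. CX3CR1, the fractalkine receptor, stood at 1.27 (SE 0.20), and P2RY2, a nucleotide receptor coupled to Gq, fell by 1.05 (SE 0.089; adjusted p of 2e-09 by edgeR). Of 9 alpha subunits, GNAI2, the main Gi alpha subunit of leukocytes and a substrate of most members here, rose by 0.67 (SE 0.056; adjusted p of 1.6e-09 by edgeR), from 53.3 to 87.7 FPKM. GNAZ, the Gz alpha subunit on which RZ proteins act, fell by 1.26 (SE 0.16; adjusted p of 8.6e-07 by edgeR), from 2.34 to 1.01 FPKM.

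Among 10 beta and gamma subunits GNG7 rose, by 0.96 (SE 0.088; adjusted p of 5.6e-09 by edgeR). Of 10 effector enzymes, 3 were called higher and 1 lower, beside 15.1% and 11.2% of all genes. The adenylyl cyclase ADCY7 (0.69, SE 0.092; adjusted p of 1.3e-06) and the phospholipase PLCB2 (1.35, SE 0.068; adjusted p of 7.1e-13) rose, and the kinase PIK3CG fell by 0.67 (SE 0.079; adjusted p of 2.3e-07), all by edgeR. PIK3CG was short of 1.5-fold with limma on log2(FPKM + 1) (-0.57). The adenylyl cyclase ADCY4, counted among the 3 but past the FPKM filter only through the 24 h libraries, stood at 2.00 (SE 0.11). Of 7 genes with an RGS-like domain outside the family, ARHGEF11, whose protein binds G12 and G13 subunits, rose by 1.00 (SE 0.090; adjusted p of 4.6e-09 by edgeR). None of the 7 receptor kinases and arrestins, nor of 4 other regulators, was called at either time. Over all genes, 0.0949% were called higher and 0.544% lower at 30 min, and 15.1% and 11.2% at 24 h.

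**Figure D4:**
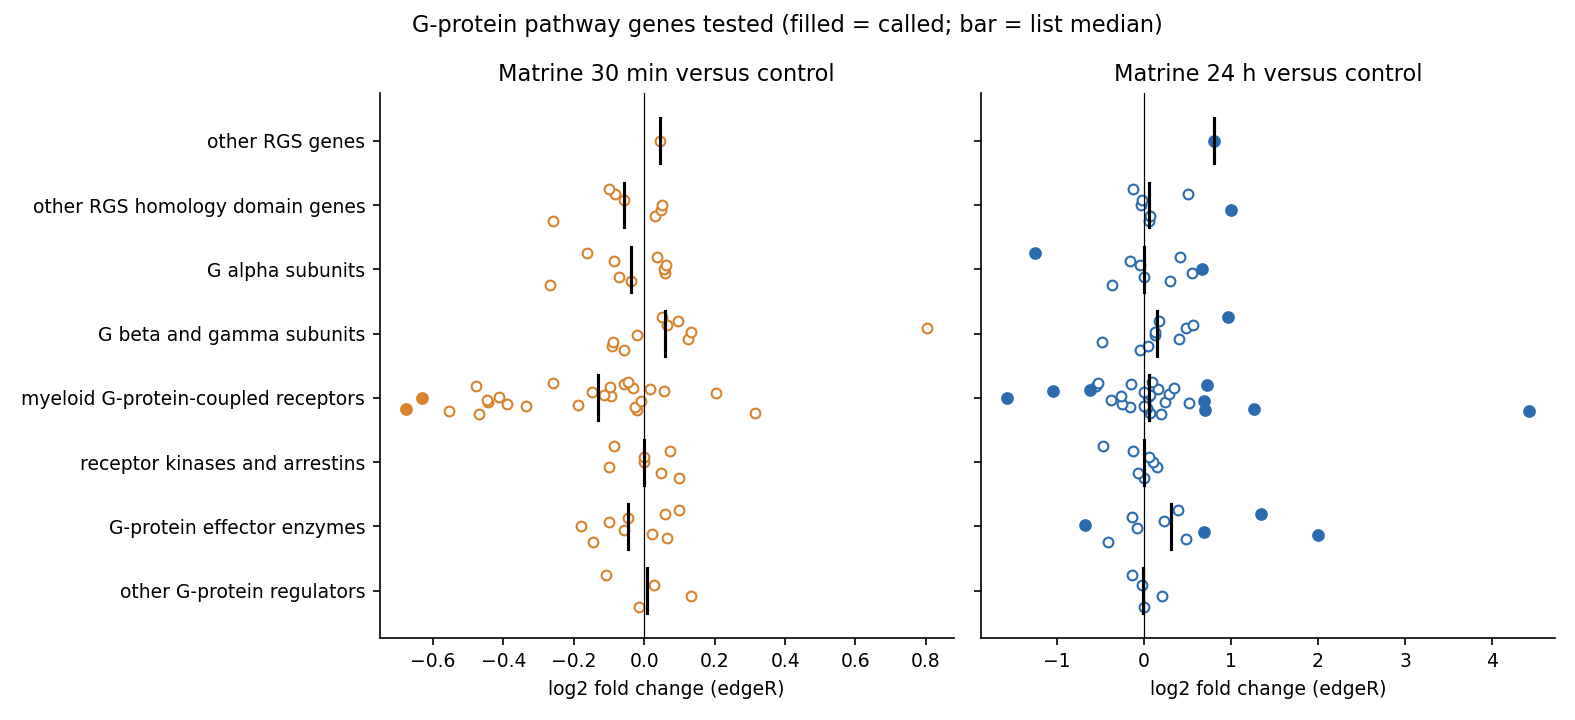
Log2 fold change (edgeR) of every tested gene of the 8 pathway lists, members left out, at 30 min (left) and 24 h (right) against control, on axes of different range; each point is a gene, filled points were called and the upright bar is the median of the list. At 30 min the filled points are CXCR4 at -0.68 and GPR84 at -0.63, and at 24 h filled points lie on both sides of 0, with C5AR1 farthest at 4.42.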

How the data were processed

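RNA-seq of 9 U937 libraries (3 groups of 3) was analysed. The authors trimmed reads with cutadapt 1.9.1, mapped them with HISAT2 2.0.1 and counted them per gene with HTSeq 0.6.1, per the submitters' processing notes; the deposited table holds unnormalized counts and FPKM values, both made by the authors. The processing notes name GRCh37 and the paper's methods hg38, and the table holds no coordinates, so printed positions come from GENCODE 44 (GRCh38) and RefSeq (GRCh38.p14). The annotation release and strand setting are not given in the sources used here. Symbols were matched for 51996 of 57905 identifiers.

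Counts were tested with edgeR 4.0.16 (R 4.3.3, TMM, quasi-likelihood). Each comparison had its own fit of all 9 libraries, over genes with a mean FPKM above 1 in the 6 libraries compared. Benjamini-Hochberg adjustment was made over those genes. Since the gene sets differ, the log2 fold changes of the 3 comparisons need not add up. The fit without that filter took genes with at least 10 counts in total. Each standard error was obtained by dividing the log2 fold change by the root of F. The fit was tested on simulated data: in a simulated 30 min comparison 188 of 200 genes changed by 1 on the log2 scale were recovered among 11587, with 0 false calls. Those counts were drawn from the kind of spread the fit assumes, with as many genes raised as lowered. The 0 therefore checks that the fit runs correctly and does not measure false calls in these libraries. The labels do not say that libraries came from separate cultures, so p-values measure the spread between these libraries; within each group, libraries differed by more than sampling noise. The members and gene lists were chosen with earlier results of these data known. Genes named were the 8 members, other RGS genes above 1 FPKM, up to 4 called genes per pathway list and comparison with the largest change, and the 2 genes most like each member above 1 FPKM; 3 listed genes were not matched. The floor of 3 counts covers counting error only, while the SDs and standard errors include the spread between libraries. Alternatives used DESeq2 1.42.0, limma 3.58.1 on log2(FPKM + 0.1) or log2(FPKM + 1), other scalings, filters and folds, a replicate block, and each library left out.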

Additional observations from a re-analysis of the deposited data

Results flagged for a closer look

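The values below compare the 24 h with the 30 min libraries. The control is on neither side of the difference, though its libraries are part of the fit for this comparison. Time in culture and time of treatment cannot be told apart. For the members the log2 difference is a description with no test: it was 2.38 for RGS3 (read without the FPKM filter) and 0.65 for RGS18, the members that differed by at least 1.5-fold and met the rule applied to all genes. It was 0.25 for RGS3 with limma on log2(FPKM + 1), and 0.53 for RGS18 without 30 min replicate 3, both short of 1.5-fold. By edgeR's test, at an adjusted p below 0.05 and at least 1.5-fold, the groups differed for RGS12 (0.74). The same held for the pathway genes named next, apart from C5AR1, ADCY4 and CX3CR1, whose values are a description. Higher at 24 h were C5AR1 by 3.32, ADCY4 by 1.96, PLCB2 by 1.27, CCR1 by 1.23, PTGER4 by 1.18, CX3CR1 by 1.14, ARHGEF11 by 0.93, GNG7 by 0.89, ADCY7 by 0.65 and GNAI2 by 0.60. C5AR1, ADCY4 and CX3CR1 passed the FPKM filter only through the 24 h libraries, where they were high, so the test is no support for them. Lower at 24 h were GNAZ (-1.11), GPR84 (-0.96) and P2RY2 (-0.92). Of all 75 tested pathway genes, 15 were called higher and 4 lower, beside 15.4% and 11.5% of all genes. The 15 include C5AR1, ADCY4 and CX3CR1. For GNAI2 the difference was 0.55 without 30 min replicate 2, 0.58 without 24 h replicate 3 and 0.55 without the FPKM filter, and for ADCY7 it was 0.56 without 30 min replicate 1, all short of 1.5-fold.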

How the results depend on the processing

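RGS16 kept its direction and met the rule for all genes under all 18 alternatives that kept the 1.5-fold threshold (-0.75 to -0.62 at 30 min, -1.21 to -0.95 at 24 h). Genes called were 74 of 11587 at 30 min, 3164 of 12035 at 24 h and 3223 of 11981 at 24 h against 30 min. Above 5 FPKM they were 49 of 7010, 1677 of 7273 and 1700 of 7195, and without the filter 99, 4678 and 4815 of 20453. Among the genes tested in the main fit they were 184, 6529 and 6699 at 1.2-fold, and 24, 1120 and 1122 at 2-fold. Of the 5 tested members, 1 met the rule in each comparison, and without the filter 2 members did in each. At 1.2-fold, 4 of 5 members met it at 24 h and 2 of 5 against 30 min. Over all genes these shares were 6529 of 12035 and 6699 of 11981. At 2-fold, 0 members met it at 30 min and 0 against 30 min, and leaving out libraries gave 0 to 1 between the times. Pathway genes called were 2 of 73, 17 of 76 and 19 of 75 tested. Above 5 FPKM they were 8 and 9 at the later contrasts. Among the genes tested in the main fit they were 6, 32 and 37 at 1.2-fold and 0, 7 and 7 at 2-fold. With limma at either pseudocount 1 was called at 30 min, and leaving out libraries gave 1 to 3 there. RGS2 at 30 min did not meet the rule in 12 of 16 alternatives. RGS3 was short of 1.5-fold at 24 h with limma on log2(FPKM + 1) (0.20). Signs turned for RGS19 at 30 min (-0.062 to 0.056 with libraries left out) and for RGS12 at 30 min (-0.028 to 0.096), and the cause was not tested. Of the genes called between 30 min and 24 h, 42.8% were lower, against 32.6% with library totals alone. With group means removed, same-numbered libraries of different groups had r of -0.16 to 0.10 over 9 pairs, and differently numbered ones -0.15 to 0.19. Whether same-numbered libraries shared a culture or batch is not given in the labels, and these r values cannot settle it. With the replicate block no member changed in whether it met the rule, and 74, 3158 and 3229 genes were called. RGS2 and RGS3 are limited by their low counts.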
